A study of Mus musculus with 4 samples.

Results

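The mitochondrial ribosomal protein genes were taken as every row named Mrpl or Mrps followed by digits and at most 1 letter, once both transgenic columns had been realigned with the names in character-code order, capitals first. This gave 77 of the 46095 rows of the table, and 77 of 77 were among the 17643 genes with enough counts to test. By textbook position 50 of them belong to the large subunit (Mrps30 and Mrps18a included, whose names point to the small subunit), 26 to the small subunit, and Mrps36 to neither, since its protein is now known as a component of the oxoglutarate dehydrogenase complex. Mrpl58 was listed under its older name Ict1, so it was not a member by this rule.

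RNA of stomach tissue was sequenced in 4 C57BL/6 mice of 12 weeks, 2 of each genotype, although the series' design text speaks of triplicates. The transgenic mice (Atp4b-cre; MycOE, called MYC-KI in the table) carried Atp4b-cre, which drives Cre in the parietal cell lineage, together with 1 copy of a floxed human c-Myc transgene (Myc fl/+) that Cre switches on. The controls, called WT, were Myc fl/fl littermates, so both genotypes carried the floxed transgene. The samples held 30260305 to 41463647 counts each. The study used mice of both sexes. Xist, expressed from the inactive X, had 17846 counts in WT replicate 2 against 85 to 201 in the other 3 samples. The Y-linked Ddx3y had 5 counts there against 1861 to 2623. By these counts WT replicate 2 was female and the other samples, both MYC-KI samples among them, were male. Sex was therefore not balanced between the genotypes, and its part in the values was not tested. The endogenous Myc row read 31.6 and 27.2 CPM (counts scaled to library size) in the WT samples and 21.7 and 24.4 in the MYC-KI samples (edgeR adjusted p = 0.163). It is the mouse gene and does not check the human transgene, which was not analysed here. The paper reports c-Myc overexpression in the transgenic stomach by RT-qPCR, western blotting and immunostaining.

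Mitochondrial ribosomes translate the few mRNAs that mitochondrial DNA encodes, all of them for core subunits of the respiratory chain and ATP synthase. Their rRNAs come from mitochondrial DNA, but every protein is encoded in the nucleus, made in the cytosol and imported, so the members are ordinary nuclear genes. Parietal cells, the acid-secreting cells of the corpus, are among the cells richest in mitochondria, and c-Myc is known to act on genes of ribosome and mitochondrial biogenesis.

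The gene names and the MYC-KI counts did not line up in the deposited table. Over the 77 members, Pearson's r between the mean log2 counts of the genotypes was 0.079 in the deposited order and 0.97 after the re-sorting, against 0.968 between the WT samples and 0.993 between the MYC-KI samples. Over all rows it went from 0.524 to 0.985. These correlations run across genes, which are not replicates. Not 1 member kept its place (0 of 77), and each moved by 2 rows, so that every value below for a MYC-KI sample depends on this step.

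**Figure D1:**
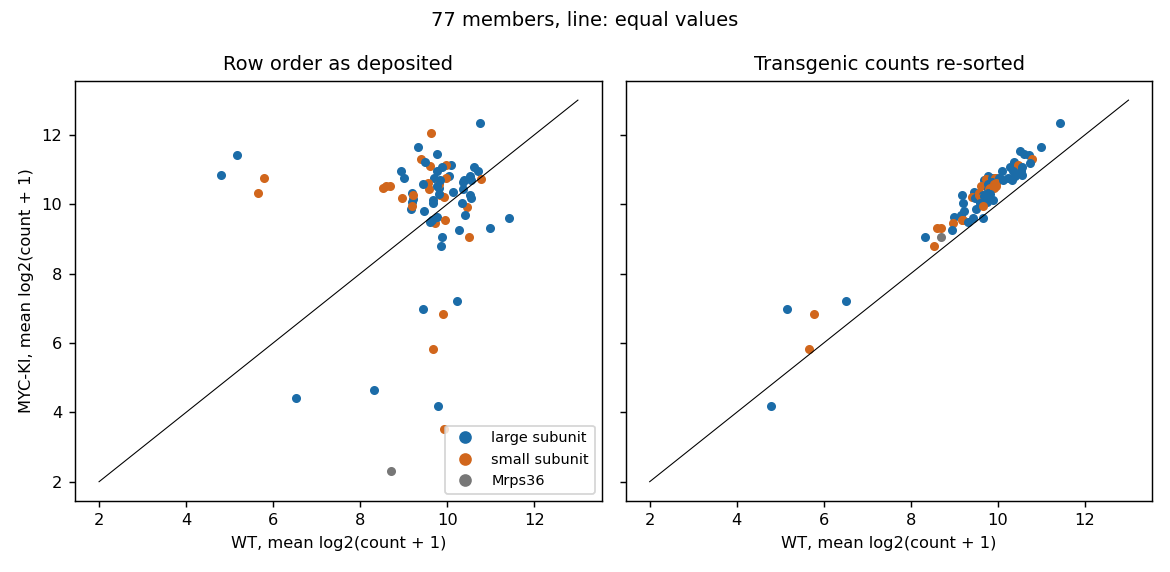
Mean log2(count + 1) of the 77 members in WT (x axis) against MYC-KI (y axis), in the deposited row order on the left and after re-sorting the MYC-KI counts on the right, with a line at equal values. The points scatter on the left (r = 0.079) and follow the line on the right (r = 0.97).

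Over all members the transcripts were modestly higher in MYC-KI stomachs. The summed level of the 77 members was 2320 and 2260 CPM in the WT samples and 2850 and 2780 CPM in the MYC-KI samples, 1.23-fold higher, scaled by TMM normalization in edgeR. The groups did not overlap, but 2 samples against 2 cannot give a smaller exact two-sided permutation p than 0.333. The median log2 fold change of the members was 0.29 (quartiles 0.10 and 0.44), where the median over all genes tested was 0.01 (quartiles -0.40 and 0.39). Of the 77 members, 62 had a positive fold change and 15 a negative one. In 55 members (71.4%) both MYC-KI samples lay above both WT samples, a pattern seen in 33.3% of all genes tested, and in 3 members both lay below, against 31.5% of all genes.

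Few members passed the test for themselves. A gene was called where edgeR's quasi-likelihood test gave an adjusted p under 0.05 and a change of more than 1.5-fold in either direction. On that rule 5 members (6.49%) were called higher, where 5.65% of all genes were, and 0 members were called lower, where 5.08% of all genes were. With the adjusted p alone 12 members (15.6%) rose against 6.98% of all genes, and 0 fell against 5.91%. At an unadjusted p under 0.05, 34 members were higher, where 17.7% of all genes were, and 1, Mrpl14, was lower, where 16.4% of all genes were. DESeq2 passed 24 members (31.2%) as higher on the adjusted p alone, against 11.6% of all genes, and 0 as lower, against 12.4%. With scaling by library size 24 members (31.2%) were called higher against 12.9% of all genes, and 42 (54.5%) passed the adjusted p against 17.7%, while without WT replicate 1 or WT replicate 2 no gene of the table was called (0 members). The labels do not say whether the samples of a genotype came from separate litters, so the p-values measure the spread between these samples.

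Without WT replicate 2, the sample set apart by Xist, the member median was 0.26 and both MYC-KI samples lay above the remaining WT sample in 57 members, a pattern seen in 40.2% of all genes in that fit. No gene of the whole table passed the adjusted p in that fit, in which 16 members and 9.97% of all genes had an unadjusted p under 0.05 and a higher level.

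**Figure D2:**
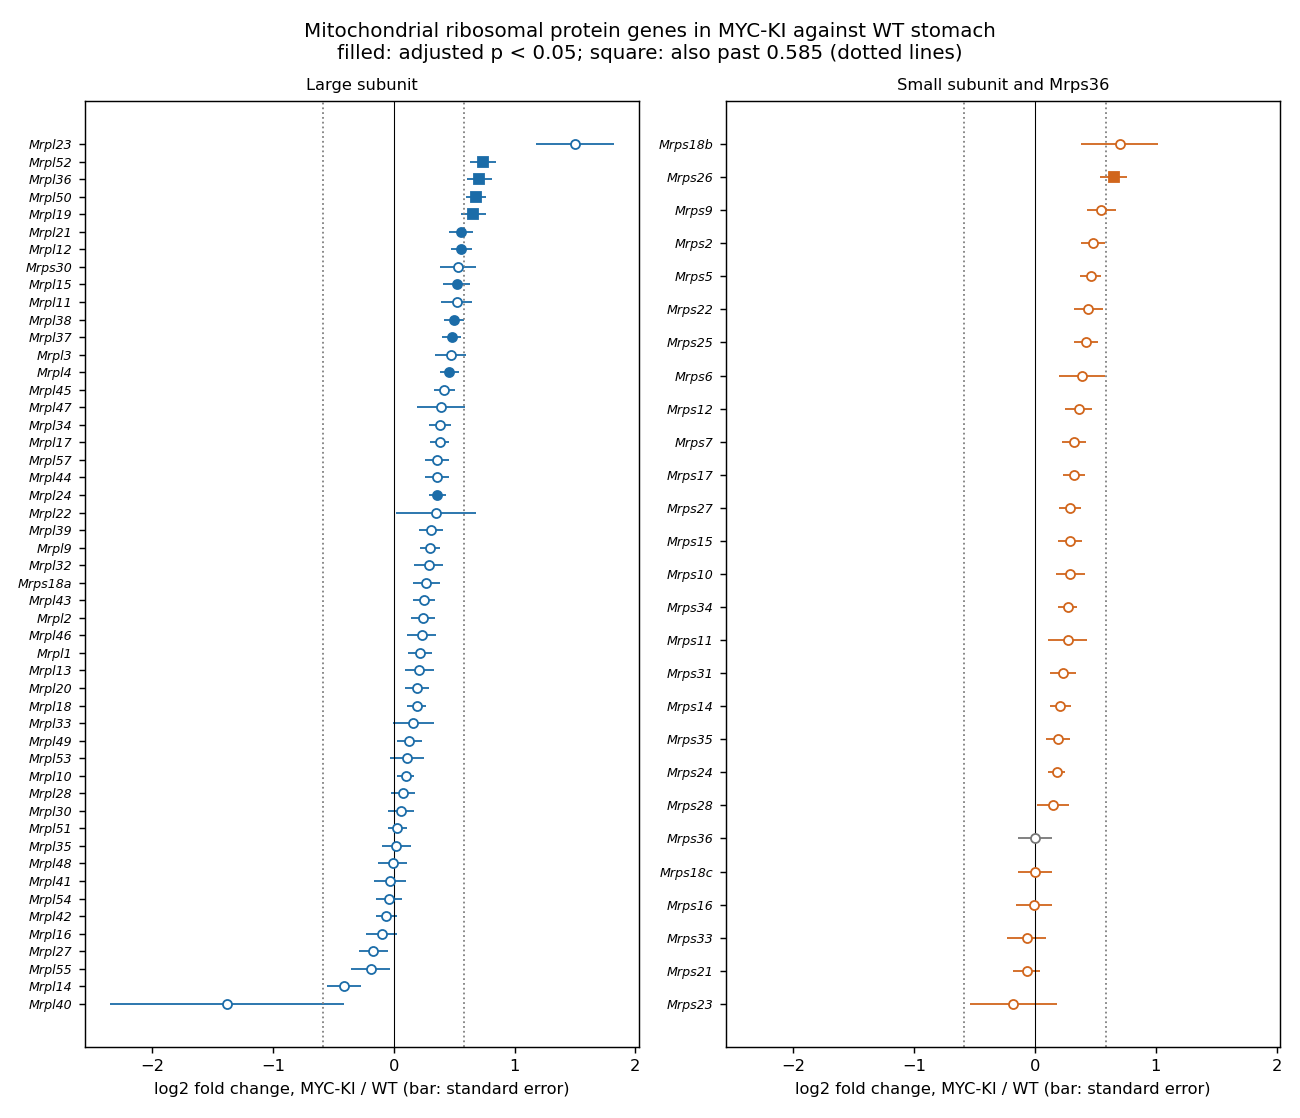
Log2 fold change of MYC-KI over WT for each of the 77 members, with the standard error as a bar, for the large subunit on the left and the small subunit with Mrps36 on the right. Filled symbols passed the adjusted p of 0.05, squares also lay past the dotted line at 1.5-fold, and most points lie between 0 and that line.

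The large subunit, which joins amino acids into protein, held 4 called members (8% of its 50 genes, against 5.65% of all genes) and 11 that passed the adjusted p (22% against 6.98%). The large-subunit genes had a median log2 fold change of 0.28, and 41 were positive. In 34 of them (68%) both MYC-KI samples lay above both WT samples, against 33.3% of all genes. Mrpl52, a protein found in mitochondrial but not bacterial ribosomes, read 18.5 and 19.5 CPM in the WT samples and 32.0 and 31.5 CPM in the MYC-KI samples. The groups lay far apart beside their spread, and Mrpl52 was 1.67-fold higher (log2 fold change 0.74 ± 0.11 SE, edgeR adjusted p = 0.0307). Mrpl50, also specific to mitochondria, read 49.3 and 46.1 CPM in WT against 76.7 and 76.6 CPM in MYC-KI, a log2 fold change of 0.68 ± 0.08 (adjusted p = 0.0223).

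The other called genes of the large subunit have bacterial counterparts. Mrpl36, a very small protein, read 29.0 and 28.1 CPM in WT and 44.8 and 48.4 CPM in MYC-KI (log2 fold change 0.71 ± 0.10, adjusted p = 0.0279). Mrpl19 read 27.1 and 26.8 CPM in WT and 44.0 and 41.3 CPM in MYC-KI (0.66 ± 0.10, adjusted p = 0.0302). In both genes the MYC-KI samples stood clear of the WT samples.

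A further 7 large-subunit genes passed the adjusted p below the fold threshold. Mrpl12, a stalk protein that also binds the mitochondrial RNA polymerase, was the member with the highest level per length in WT, and read 93.2 and 85.7 CPM in WT against 138 and 126 CPM in MYC-KI (log2 fold change 0.56 ± 0.09, adjusted p = 0.0363). Mrpl21, Mrpl15, Mrpl38, Mrpl37, Mrpl4 and Mrpl24 had log2 fold changes of 0.56, 0.52, 0.50, 0.48, 0.46 and 0.36. Of these, Mrpl24 sat closest to the threshold, with an adjusted p of 0.0497. The 28 large-subunit genes with bacterial counterparts had a median of 0.30, and the 22 specific to mitochondria had 0.26.

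The small subunit holds the mRNA. Its 26 genes had a median log2 fold change of 0.29. In 21 of them (80.8%) both MYC-KI samples lay above both WT samples, against 33.3% of all genes. Only Mrps26 (3.85%) was called or passed the adjusted p, against 5.65% and 6.98% of all genes. Mrps26, another mitochondria-specific protein, read 27.2 and 27.7 CPM in WT and 46.1 and 40.3 CPM in MYC-KI (0.65 ± 0.11, adjusted p = 0.0374). None of the 15 genes listed here as having bacterial counterparts, a list without Mrps24 and Mrps28, was called (median 0.32). Of that list Mrps5 missed the adjusted p with 0.0501. The subunits were not tested against each other. The summed large-subunit level over the summed small-subunit level was 2.39 and 2.37 in the WT samples and 2.38 and 2.39 in the MYC-KI samples, so the groups overlapped on this ratio.

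**Figure D3:**
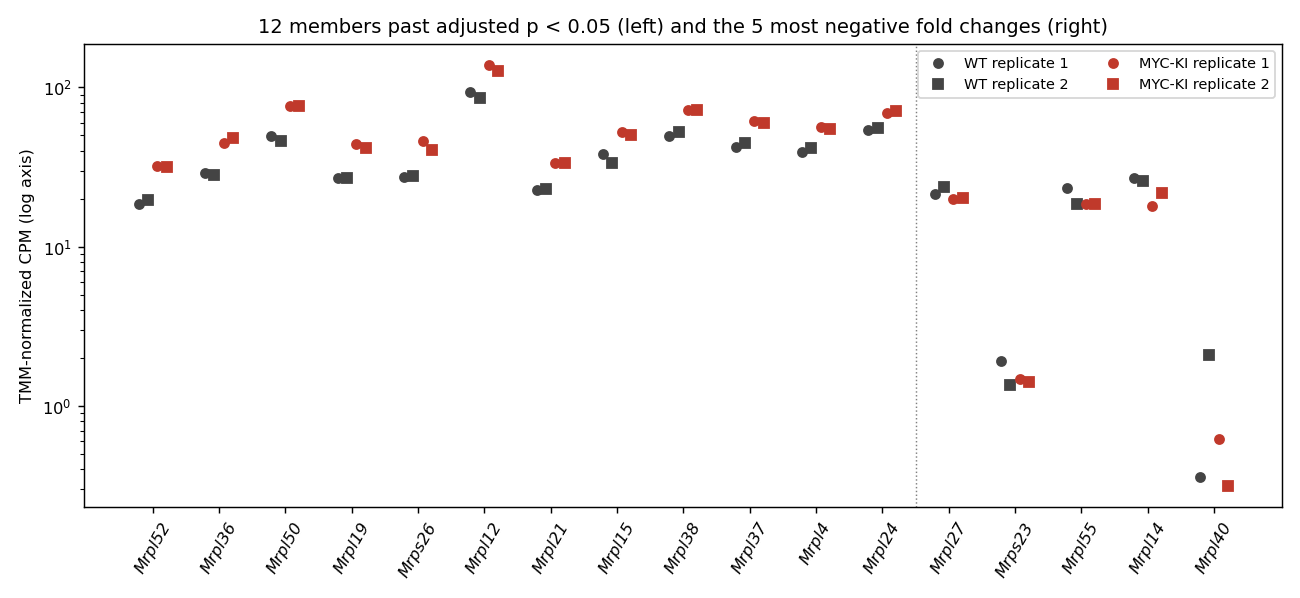
TMM-normalized CPM (log axis) of the 12 members that passed the adjusted p, left of the dotted line, and of the 5 members with the most negative fold changes, right of it, with a symbol for each of the 4 samples. On the left both MYC-KI symbols lie above both WT symbols in every gene, while Mrps23 and Mrpl40 on the right have overlapping groups.

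The largest fold change of any member belonged to Mrpl23, a protein near the exit of the peptide tunnel. It had 43 and 28 counts in WT and 111 and 143 counts in MYC-KI, 2.82-fold higher, and its adjusted p of 0.0551 missed the threshold. It was called by DESeq2 (adjusted p = 0.00757) and in edgeR with no filter on low counts (0.0462), with at least 10 counts in every sample (0.0402) and with scaling by library size (0.0327). A pseudogene row, Mrpl23-ps1, held 16 to 21 counts per sample, and with those counts added the log2 fold change of Mrpl23 went from 1.5 to 1.14 (adjusted p = 0.0686). Mrps18b, also low, gave 52 and 56 counts in the WT samples, 95 and 132 in the MYC-KI samples and a log2 fold change of 0.70 ± 0.32 (adjusted p = 0.208).

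No member was called lower, and the 5 with the most negative fold changes were a mixed set. Mrpl14, which lies at the interface of the subunits, read 27.1 and 25.8 CPM in WT and 18 and 21.8 CPM in MYC-KI (log2 fold change -0.41 ± 0.14, adjusted p = 0.133). Both MYC-KI samples were below both WT samples, as they also were for Mrpl55 (-0.19) and for Mrpl27 (-0.17), a protein near the site of peptide bond formation. Scaled by library size alone, the last pair turned to 0.04 and 0.05. Mrpl40 had 12 and 58 counts in WT and 21 and 14 counts in MYC-KI, so its log2 fold change of -1.38 ± 0.97 came from WT replicate 2 and became 0.37 without it. Mrps23 gave 64 and 38 counts in the WT samples, 50 and 63 in the MYC-KI samples (-0.18 ± 0.36), with overlapping groups. Mrps36, the row that is no ribosomal protein, read 13 to 14.1 CPM across the 4 samples with a log2 fold change of 0.00 ± 0.14.

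Levels were compared between members as CPM per kilobase of annotated exon (GENCODE M21). This length counts every annotated exon base of a gene, such as 607 for Mrpl34 and 8631 for Mrps35, so the ranking also depends on the annotation. In WT stomach the levels ran from 0.233 for Mrpl23 to 58.4 for Mrpl12, with a median of 10.9, and Mrpl34 (56.5) stood next to Mrpl12. Mrpl40 (0.693), Mrps18b (0.852), Mrps23 (1.04) and Mrpl23 were the lowest, with Mrpl47 (2.38) next, although the ribosome holds its proteins in nearly equal numbers. These 4 low genes included the highest and the lowest fold change of all members, and none of them passed edgeR's adjusted p as reported, although Mrpl23 did so in the alternatives named above. The cause of their low levels was not tested.

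**Figure D4:**
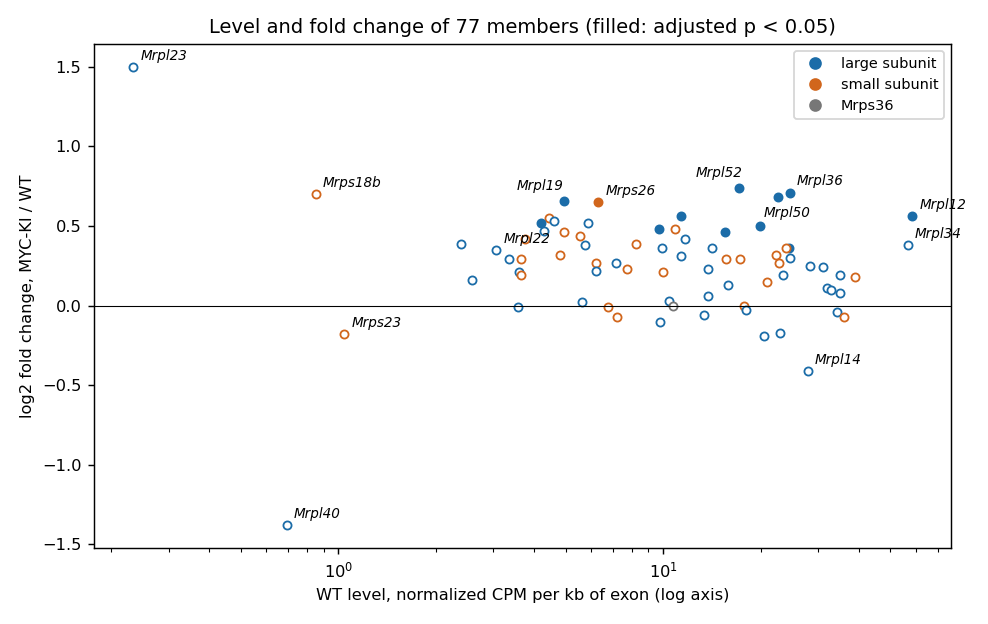
WT level of each of the 77 members as normalized CPM per kilobase of exon (x axis, log scale) against its log2 fold change (y axis), filled where the adjusted p was under 0.05. The extreme fold changes, 1.5 for Mrpl23 and -1.38 for Mrpl40, sit at levels under 1, and the 12 filled points lie at higher levels.

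The members lay on 17 chromosomes. The strand setting of the counting is not given in the sources used here, so reads of overlapping genes cannot be told apart. In the annotation 45 members shared no exon base with another gene. In 3 members at least 50% of the exon bases were shared: Mrpl53 with Gm42688 on the same strand, and Mrps25 with Nr2c2 and Mrps34 with Mapk8ip3 on opposite strands. The 74 other members kept a median log2 fold change of 0.29. Among the called genes, Mrpl19 (mm10 chromosome 6, 81957826 to 81965949) shared 36.0% of its exon bases with Gcfc2, while Mrpl52 (chromosome 14, 54426909 to 54429750) and Mrpl50 (chromosome 4, 49512597 to 49521083) shared 0.0%. Mrpl36 (chromosome 13, 73328503 to 73332178) shared 2.58% with Ndufs6, and Mrps26 (chromosome 2, 130563757 to 130565394) shared 0.184%.

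Promoters from RefSeq (GRCm38.p6, the same assembly as mm10), each 250 bases before to 50 bases after a start, were on hand for 68 members and 27025 genes in all. They were searched on both strands for 4 strings: CACGTG, the E-box that c-Myc with Max can bind, GCATGCGC for NRF1, CCGGAAGT for ETS factors and AAGATGGC for YY1. CACGTG was in 5 of the 68 member promoters (7.35%) and in 8.09% of all promoters. The other strings were in a larger share of member promoters, with GCATGCGC in 11.8% against 3.05%, CCGGAAGT in 17.6% against 4.31% and AAGATGGC in 17.6% against 3.19%. At least 1 of the 4 was in 45.6% of member promoters and 16.8% of all promoters. These shares are descriptions of letters in a window, and matches can overlap. Of the 12 members that passed the adjusted p, 8 had a promoter entry, and CACGTG was in those of Mrpl36 and Mrpl37, CCGGAAGT in those of Mrpl52 and Mrps26, AAGATGGC in those of Mrpl36 and Mrpl37, and GCATGCGC in none of them (0 of 8). Of 14 members with a negative fold change and a promoter entry, CACGTG was in 1, GCATGCGC in 0, CCGGAAGT in 3 and AAGATGGC in 1.

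Stretches of 100 bases show these matches, in capitals, in members that passed the adjusted p (Mrpl36, Mrpl37, Mrps26) and, for contrast, in Mrpl32, whose promoter held the most GCATGCGC matches. They are written 5′ to 3′ on the strand of the gene. The Mrpl36 stretch is chr13:73330909-73331008 (plus strand, with an E-box and the YY1 string). It precedes a RefSeq start that lies inside the span given above for the gene, 73328503 to 73332178. The Mrpl37 stretch is chr4:107066979-107067078 (minus strand, an E-box) and that of Mrps26 is chr2:130563657-130563756 (plus strand, the ETS string). The Mrpl32 stretch is chr13:14613052-14613151 (minus strand, the NRF1 string, partly overlapping itself).
Mrpl36: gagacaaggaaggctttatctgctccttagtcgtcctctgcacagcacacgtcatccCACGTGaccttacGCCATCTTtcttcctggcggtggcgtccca
Mrpl37: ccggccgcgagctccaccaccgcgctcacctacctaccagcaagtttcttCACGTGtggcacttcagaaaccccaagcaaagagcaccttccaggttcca
Mrps26: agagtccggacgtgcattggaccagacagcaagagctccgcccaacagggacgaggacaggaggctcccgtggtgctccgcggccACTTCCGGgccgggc
Mrpl32: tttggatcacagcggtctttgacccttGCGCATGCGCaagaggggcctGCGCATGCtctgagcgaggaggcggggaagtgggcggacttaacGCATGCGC
Mrpl32 itself read 16.9 and 16.5 CPM in WT and 21.2 and 19.7 CPM in MYC-KI (log2 fold change 0.29, adjusted p = 0.185), a value at the median of the members.

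The genes that work with the mitoribosome were taken as whole lists. The 6 mitoribosomal proteins with other names had a median log2 fold change of 0.29 and none was called (0 of 6). Ptcd3 was the highest of them, at 0.49 (adjusted p = 0.0583), and Ict1 read -0.08. Of 26 assembly factors 1 was called, Noa1, a GTPase needed to build the mitoribosome, which read 22.6 and 22.5 CPM in WT and 52.2 and 54.5 CPM in MYC-KI (log2 fold change 1.24 ± 0.09, adjusted p = 0.0152). The list median was 0.26. Of 15 translation factors and partners none was called (0 of 15, median 0.23), though Lrpprc, which stabilizes mitochondrial mRNAs, and Oxa1l, which inserts new proteins into the inner membrane, passed the adjusted p with 0.50 each. Against the 5.65% of all genes called higher, these lists held 0%, 3.85% and 0%. With scaling by library size, where 12.9% of all genes were called higher, they held 2, 5 and 4 calls, and without either WT sample 0.

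The lists for mitochondrial DNA, RNA and import are set beside the 5.65% of all genes called higher, and were not tested against each other or against the members. Of 12 genes of mitochondrial DNA upkeep and transcription, 3 (25%) were called higher: Ssbp1, the single-strand binding protein (0.77), Peo1, the Twinkle helicase (0.77), and Tfb2m, a transcription factor (0.59). Of 18 genes of mitochondrial RNA processing, 6 (33.3%) were called higher, led by Elac2, which cuts tRNA 3′ ends (1.01), Pus1, a pseudouridine synthase (1), and Trnt1, which adds CCA (0.79). Hsd17b10, a subunit of mitochondrial RNase P as well as a dehydrogenase, went the other way at -0.38 (adjusted p = 0.0435). Of 19 import, chaperone and mass genes, 5 (26.3%) were called higher, among them Hspd1 (1.10) and Hspe1 (0.83), the chaperonin and its partner, and Phb2, a prohibitin (0.71). The mass markers in that list were not called, with Cs, citrate synthase, at -0.31 and the outer-membrane channels Vdac1, Vdac2 and Vdac3 at 0.06, -0.07 and -0.07. The calls in these lists did not hold in every fit that left out a sample, where 1 genotype had 1 sample. Across all lists of mitoribosome partners 15 genes were called higher and 0 lower.

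The transcripts of the respiratory chain had negative medians. Of 79 tested nuclear-encoded subunits of oxidative phosphorylation, 0 were called higher and 3 lower (Cox7a1 at -2.61, Atp5g1 at -0.65 and Ndufa11 at -0.61), and this 3.8% lay below the 5.08% of all genes called lower. On the adjusted p alone 21 (26.6%) fell, against 5.91% of all genes, but that count was 5 with scaling by library size (against 4.68% of all genes) and 34 by DESeq2 (against 12.4%). In each fit that left out a sample, where 1 genotype had 1 sample, the count was lower than 21. The median log2 fold change of the subunits was -0.26, and -0.04 with scaling by library size, where the median of all genes was 0.23. All 13 mRNAs from mitochondrial DNA, the ones the mitoribosome reads, had negative fold changes (12 of 13 with scaling by library size) with a median of -0.47 (-0.25 with scaling by library size), and 2 were called lower (COX3 at -0.88 and ND2 at -0.67). In summed CPM the members made 176 and 177 per 1000 of the nuclear subunits in the WT samples, and 268 and 259 per 1000 in the MYC-KI samples. The 84 tested cytosolic ribosomal protein genes had a median of 0.72 with 53 (63.1%) called higher, against 5.65% of all genes. That count was 7 at a log2 threshold of 1 and ranged from 0 to 45 over the fits that left out a sample. Per 1000 of their CPM the members made 184 and 193 in WT and 151 and 135 in MYC-KI. The ratios did not overlap between the genotypes. They were not tested, since the lists were not chosen independently of earlier results.

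**Figure D5:**
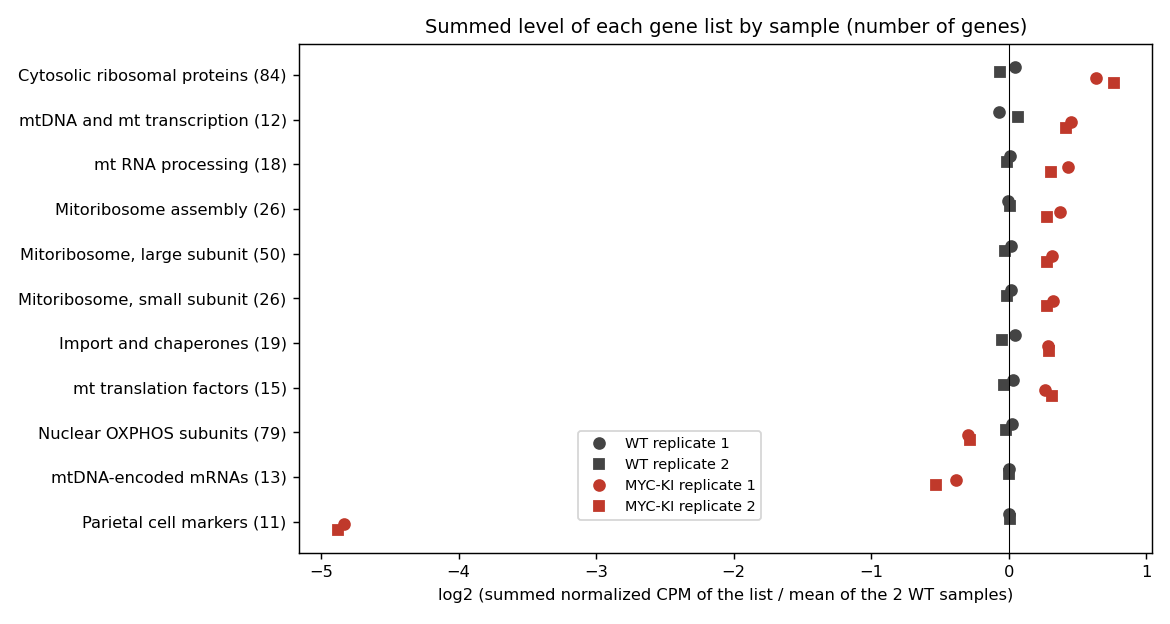
Summed TMM-normalized CPM of 11 gene lists (chief and other cell type markers are not drawn) in each of the 4 samples, as log2 of its ratio to the mean of the 2 WT samples, with the number of tested genes in brackets. Both mitoribosomal subunits sit right of 0 in the MYC-KI samples, the respiratory chain lists sit left of 0, and of the lists drawn the parietal cell markers lie farthest left.

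Cell type markers differed widely between the genotypes. All 11 tested genes of the list used for parietal cells, which includes Gif (1780 and 1680 CPM in WT), were called lower. Their summed level was 13900 and 14000 CPM in WT against 487 and 473 CPM in MYC-KI, 29.0-fold lower. Atp4a read 7680 and 7950 CPM in WT and 138 and 187 CPM in MYC-KI, and Atp4b, whose promoter drives the Cre, 2610 and 2490 against 38.4 and 51.7. The sum of the chief cell markers went from 83100 and 78900 to 1110 and 1470 CPM (4 of 6 called lower) and all 4 surface mucous markers were called lower. Of the mucous neck and metaplasia markers, 1 of 5 was called higher (Wfdc2). Squamous markers were not called (0 of 5) but their sum was highest in MYC-KI replicate 2, at 1890 CPM against 503 to 943 in the other samples, and smooth muscle sums ran from 2250 to 6950 CPM with overlapping groups (0 of 5 called). Of 5 leukocyte markers 2 were called lower, of 4 adipocyte markers 1 was, and 1 of 5 acinar markers, Cela1, was tested and called lower. In RNA of stomach tissue, fewer cells of a type and less RNA per cell cannot be told apart, and the part of cell makeup in the members' values was not tested.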

How the data were processed

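The authors sequenced RNA from stomach, which the paper describes as gastric mRNA, and, per the labels, aligned reads to mm10 with HISAT2. The deposited table holds whole-number counts per gene; counter, strand setting and annotation are not given in the sources used here. Each MYC-KI column was re-assigned, in row order, to the names sorted by character code. Counts were tested with edgeR 4.0.16 (R 4.3.3: filterByExpr, TMM, quasi-likelihood, Benjamini-Hochberg over 17643 genes), and with DESeq2 1.42.0 as an alternative. CPM are TMM-normalized. Named members were those called plus the 5 largest fold changes in each direction. The 7 members past the adjusted p alone, Cs, the Vdac genes, Mrps5, Mrps24, Mrps28, Mrps35, Mrps36, Mrpl32, Mrpl34, the most overlapped genes, Ptcd3, Ict1, Lrpprc, Oxa1l, Hsd17b10, Rpl29, Gif, Wfdc2 and Cela1 were named after their values were seen. In companion lists at most 3 called genes in each direction were named. The members and lists were chosen with earlier results of these data known. Alternatives covered scaling, filtering, testing, row order and leaving out each sample. Replicates of a genotype differed beyond counting noise and were kept separate.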

Additional observations from a re-analysis of the deposited data

How the results depend on the processing

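With 2 samples per genotype the 5 called members depended on 3 of the libraries: all 5 stayed called without MYC-KI replicate 2. Leaving out each sample in turn gave 0 to 6 members called higher, 0 to 7 past the adjusted p, 0 to 5 called in the large and 0 to 1 in the small subunit, 0 to 16 called companion genes and a member median of 0.24 to 0.32. Without either WT sample 0 genes of the whole table passed edgeR's adjusted p (20 and 16 members were higher at an unadjusted p under 0.05, against 9.89% and 9.97% of all genes). Without MYC-KI replicate 1, 2 members were called (Mrpl36 and Mrpl50, 2.6% against 4.2% of all genes) and 0 of the small subunit, and without MYC-KI replicate 2, 6 were called (7.79% against 5.82%) and 7 passed the adjusted p. A lone sample is assumed to vary like the other genotype. Scaling by library size, which moved the median of all genes to 0.23, gave 24 members called higher (31.2%, against 12.9% of all genes), 42 past the adjusted p (54.5% against 17.7%), 18 in the large and 6 in the small subunit, 34 companion genes and a member median of 0.51. DESeq2 passed 24 members on the adjusted p, and nuclear oxidative phosphorylation subunits past it as lower ranged from 0 to 34 over the alternatives other than the deposited order. A log2 threshold of 1 left 0 members in either subunit, where 2.63% of all genes were called higher, and 3 companion genes. In the deposited row order 29 members were called higher (37.7%, against 42.7% of all genes), 19 lower (against 41.5% of all genes), 36 and 25 passed the adjusted p (against 43.8% and 42.2%), 17 and 12 were called by subunit and the median was 0.20. With the replicate block no member (0), in either subunit, and no companion gene (0) was called, where 0.153% of all genes were called higher, and 1 cytosolic ribosomal protein was, while 28 members and 14.7% of all genes were higher at an unadjusted p under 0.05; the replicate numbers did not pair the samples (correlation of deviations 0.064). Fold changes turned for Mrpl40 (-2.16 to 0.37 over the fits that left out a sample, 0.37 without WT replicate 2) and Mrps23 (-0.41 to 0.08, 0.08 without WT replicate 1), and with library size for Mrpl55 (0.04), Mrps23 (0.04) and Mrpl27 (0.05). Of 121 values of the 12 members named by rule, 94 kept direction and call under alternatives other than the deposited order. For members not called above, this means staying uncalled. The 5 called members lost the call in 18 values. In the deposited order Mrpl50 (-0.52) and Mrps26 (-0.54) turned negative, while Mrpl36 (1.4), Mrpl19 (0.79) and Mrpl52 (0.6) stayed positive. Mrpl40, Mrps23, Mrpl55, Mrpl27 and Mrpl14 turned positive there. Of 70 values of the 7 members past the adjusted p alone, 34 kept direction and an adjusted p under 0.05, again without the deposited order. Where not stated above, the cause was not tested.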
